A study of Mus musculus with 15 samples.

Results

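Genes of lymphoid priming and early B cell development, namely Il7r, Dntt, Rag1, Ikzf1, Ebf1, Pax5, Cd79a, Cd79b and Vpreb1, were followed through 15 RNA-seq libraries of mouse LSK cells (lineage-negative, Sca-1+, c-Kit+ bone marrow cells). They were taken by name, as 9 of the 45232 gene IDs in the count table, under a rule that holds no measured value, although earlier results of these data were known when they were chosen. All 9 passed the filter on low counts that left 17834 genes for testing. Rag1 passed it only through the WT libraries, since it reached the cut of 0.391 CPM (read counts scaled to a common library size, with TMM factors) in all 3 of them and in 2 of the other 12, while 3 libraries were needed. A gene that passes through 1 group had to differ there, so the tests of Rag1 against WT are given as values and support nothing. Pax5 reached the cut in 3 WT libraries and in 3 others.

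The 5 groups held 3 libraries each, all of CD45.2+ LSK cells of the C57BL/6 strain. Of these groups, 4 came from lethally irradiated CD45.1 hosts that had been given a mixture of CD45.2 marrow with Jak2 V617F and Idh2 R140Q and of CD45.1 support marrow. Both mutations are conditional alleles switched on by Mx1-Cre after polyI:polyC, so that recombination was not restricted to LSK cells. These hosts were gavaged for 21 to 28 days with vehicle, with AG221 (an inhibitor of mutant IDH2, 40 mg/kg), with ruxolitinib (a JAK1/2 inhibitor, 60 mg/kg) or with both drugs, which is called combined treatment here, and were killed about 1.5 hours after the last dose. The fifth group is WT cells without either mutation, and whether they came from transplanted or untransplanted mice is not stated in the sources used here. Whether a library stands for 1 mouse or for pooled mice is also not stated, so the p-values measure the spread between libraries, which may in part be technical.

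Most LSK cells are stem cells and multipotent progenitors, and a subset of them that carries the Flt3 receptor is lymphoid-primed. Such cells begin to transcribe Il7r, Dntt and the Rag genes at low levels under Ikaros and E proteins, before commitment. In committed B cell precursors, EBF1 and then PAX5 switch on the B cell program, which includes the signaling chains CD79A and CD79B and the surrogate light chain, parts of the pre-B cell receptor beside the immunoglobulin heavy chain. The lineage cocktail used for the sort contained B220 but not the IL-7 receptor. In a bulk library, fewer cells of a type and less RNA per cell cannot be told apart.

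Library totals were 18836625 to 32174287 reads in genes, with a median of 25545779, so that 3 reads (the floor used here) correspond to 0.0957 to 0.157 CPM. Replicates of a group correlated at 0.96 to 0.987 (Pearson r of log2 CPM over genes). Kit, which defines the sorted fraction, lay at 739.8 to 1552 CPM in all libraries. Ly6a (Sca-1) lay at 13.1 CPM in vehicle library A4 and at 42.9 to 166 CPM in all others. Among the vehicle libraries, A4 was also lowest in Il7r, Dntt, Ebf1, Pax5 and Cd79a, but not in Rag1, Vpreb1, Cd79b or Ikzf1. A link between these levels and Ly6a was not tested. Xist stood at 455 to 511 CPM in WT libraries and at 0.365 to 19.5 CPM in all others, while Uty, Ddx3y and Kdm5d were at or under the floor in the 3 WT libraries and above it in the other 12, so sex and genotype cannot be told apart. Library names begin with A for vehicle, AG221 and ruxolitinib and with B for combined treatment and WT. What the letter stands for is not given, and every comparison between the A and the B groups carries it.

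Measured per kilobase of exon, which allows genes to be compared, the 9 genes spanned more than 3 orders of magnitude in WT cells. Dntt was highest at 159.9 ± 19.6 CPM per kb (SD, n = 3), followed by Cd79b at 30.2 ± 2.05, Ikzf1 at 20.5 ± 2.39 and Cd79a at 8.93 ± 3.10 CPM per kb. Vpreb1 at 2.42 ± 1.01, Il7r at 1.99 ± 0.234, Ebf1 at 0.530 ± 0.218, Rag1 at 0.332 ± 0.164 and Pax5 at 0.106 ± 0.0539 CPM per kb were low. Pax5 rested on 17 to 44 reads per WT library and on 1 to 18 reads in any other.

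**Figure D1:**
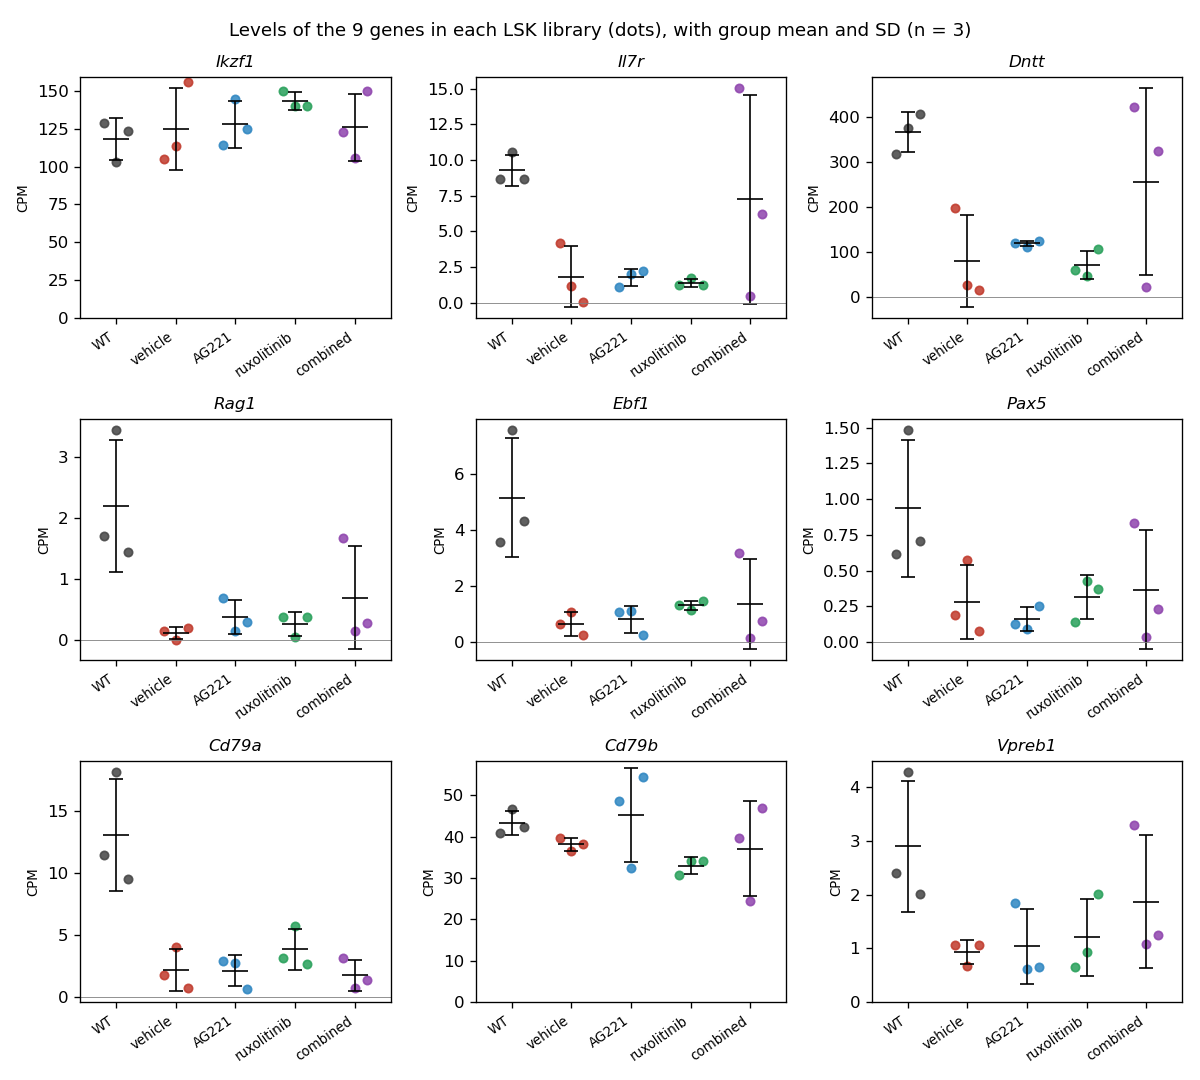
Level of each of the 9 genes in CPM (vertical axis, linear, 1 panel per gene) in the 15 libraries, grouped as WT, vehicle, AG221, ruxolitinib and combined. Dots are libraries, and bars give the group mean ± SD (n = 3). The WT mean is the highest for most genes, combined treatment is split for Il7r and Dntt, and Ikzf1 and Cd79b are nearly level.

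The sequence before the start site is shown for Cd79a and Rag1, the members called in 3 of the 4 comparisons with WT, Rag1 with the limit above. The Rag1 window held matches to 2 of the 3 motifs searched. RefSeq (GRCm38.p6) windows from 250 bases before to 50 bases after a start were present for 8 of the 9 genes and were searched on both strands for CAGGTG (an E-box of E proteins), TGGGAA (an Ikaros core) and CCCNNGGG (the core of the EBF1 palindrome). Only the bases outside annotated exons are printed, in the direction of the gene, with E-box and Ikaros matches in capitals. The Cd79a stretch is chr7:24897247-24897380 (plus strand) and the Rag1 stretch is chr2:101649533-101649782 (minus strand).
Cd79a: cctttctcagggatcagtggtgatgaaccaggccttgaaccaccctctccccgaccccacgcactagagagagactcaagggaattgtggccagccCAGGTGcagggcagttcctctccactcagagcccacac
Rag1: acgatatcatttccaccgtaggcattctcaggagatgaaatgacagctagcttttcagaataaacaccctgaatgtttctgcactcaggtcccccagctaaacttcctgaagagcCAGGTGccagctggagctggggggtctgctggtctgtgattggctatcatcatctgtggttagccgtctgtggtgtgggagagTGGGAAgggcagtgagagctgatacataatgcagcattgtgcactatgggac
The E-box was found in the windows of Cd79a, Rag1 and Vpreb1, and 20.2% of 32851 mouse windows hold it. TGGGAA was found in the windows of Rag1 and Ebf1 (25.6% of all windows), and CCCNNGGG in a window of Ikzf1 (13.7%). These matches are descriptions of letters and carry no statement about binding.

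Il7r encodes the alpha chain of the interleukin-7 receptor, on which mouse B lymphopoiesis depends, and lies at chr15:9505788-9530176. WT libraries held it at 8.64, 10.5 and 8.68 CPM. It stood at 4.21, 1.21 and 0.0789 CPM with vehicle, at 1.11, 2.02 and 2.22 CPM with AG221 and at 1.27, 1.71 and 1.23 CPM with ruxolitinib. Every one of these 9 mutant libraries was below every WT library. Combined treatment gave 15.0 CPM in library B24, 0.484 CPM in B25 and 6.20 CPM in B26, with B24 above WT and B25 below the AG221 and ruxolitinib libraries.

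Dntt, the template-independent polymerase that adds nucleotides at V(D)J junctions (chr19:41029275-41059525), split the combined libraries in the same way. Its levels were 318, 376 and 406 CPM in WT, 198, 25.5 and 15.9 CPM with vehicle, 121, 112 and 124 CPM with AG221 and 59.7, 47.5 and 106 CPM with ruxolitinib. Combined treatment gave 421 CPM in B24, 23.1 CPM in B25 and 323 CPM in B26. Libraries B24 and B26 were thus at WT levels or above, whereas B25 was within the vehicle range. B25 stood apart in other markers too. The summed level of 14 dendritic cell markers, Flt3 among them, was 1067, 463 and 964 CPM in B24, B25 and B26. In WT it was 957 to 1045 CPM. The summed level of 12 erythroid markers was 2310, 3966 and 2301 CPM against 1737 to 1892 CPM in WT. Their part in the split was not tested. Flt3, the receptor that marks lymphoid-primed progenitors, split the combined libraries alike, at 575, 131 and 405 CPM in B24, B25 and B26. It stood at 518 to 600.4 CPM in WT and at 87.8 to 191 CPM with vehicle. Its levels are part of the dendritic cell sum, so the low sum in B25 is not a separate observation. Rag2, the partner of Rag1, stood at 10.7, 1.14 and 6.98 CPM in B24, B25 and B26, against 7.88 to 9.74 CPM in WT and 1.18 to 3.61 CPM with vehicle.

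Rag1, the catalytic subunit of the V(D)J recombinase (chr2:101638282-101649501), was sparse. WT libraries held 47, 102 and 43 reads, or 1.71, 3.44 and 1.44 CPM. Vehicle libraries held 4, 0 and 5 reads, AG221 libraries 16, 3 and 8, ruxolitinib libraries 8, 1 and 10, and combined libraries 32, 4 and 6. Only combined library B24, at 1.67 CPM, reached the WT range, and B26 did not, unlike for Dntt. B230118H07Rik covers 1.21% of the Rag1 exons on the same strand, so a few reads could belong to either gene.

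Ikzf1 encodes Ikaros, a zinc finger factor that is needed for lymphoid priming (chr11:11685003-11772926). It was nearly level, at 103 to 129 CPM in WT, 105 to 156 CPM with vehicle, 114 to 145 CPM with AG221, 139.7 to 149.9 CPM with ruxolitinib and 105 to 149.6 CPM with combined treatment. The ranges of all neighbouring groups in the order of means overlapped. Its relative Ikzf2 (Helios) had a mean of 78.9 ± 3.76 CPM in WT and 84.9 ± 15.6 CPM with vehicle (SD, n = 3) and was below the WT range with ruxolitinib, at 61.7 ± 5.59 CPM (adjusted p = 0.0813 in edgeR against WT). Ikzf3 (Aiolos), which is used later in B cell development, stood at 2.48 to 5.73 CPM in WT and at 0.0746 to 1.24 CPM in the other 12 libraries.

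Ebf1, the factor that specifies the B cell fate (chr11:44617317-45008091), stood at 3.59, 7.58 and 4.33 CPM in WT. It was 0.639, 1.08 and 0.237 CPM with vehicle, 1.07, 1.13 and 0.255 CPM with AG221, 1.32, 1.15 and 1.45 CPM with ruxolitinib, and 3.18, 0.138 and 0.740 CPM with combined treatment. All 12 mutant libraries were below WT, with B24 the nearest. Pax5, which commits cells to the B lineage (chr4:44524757-44710487), ranged from 0.617 to 1.48 CPM in WT, from 0.0789 to 0.574 CPM with vehicle, from 0.0938 to 0.255 CPM with AG221, from 0.141 to 0.427 CPM with ruxolitinib and from 0.0346 to 0.835 CPM with combined treatment, where B24 alone was within the WT range. The exons of 5730488B01Rik and Gm12462 overlap 8.60% of Pax5 in antisense, and the strand setting of the counting is not given, so those reads cannot be assigned.

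Cd79a, the Ig-alpha chain that couples the B cell receptor to kinases (chr7:24897381-24902197), stood at 11.4, 18.1 and 9.52 CPM in WT. It was 1.73, 3.99 and 0.750 CPM with vehicle, 2.91, 2.72 and 0.655 CPM with AG221, 3.16, 5.68 and 2.61 CPM with ruxolitinib, and 3.13, 0.691 and 1.34 CPM with combined treatment. No mutant library reached WT, and all 3 combined libraries, B26 included, were below the highest vehicle library. Its partner Cd79b (Ig-beta, chr11:106311341-106314762) behaved otherwise, at 41.0 to 46.6 CPM in WT, 36.5 to 39.7 CPM with vehicle, 32.5 to 54.5 CPM with AG221, 30.7 to 34.2 CPM with ruxolitinib and 24.4 to 46.9 CPM with combined treatment. Per kilobase of exon, vehicle libraries held Cd79b at 26.6 ± 1.12 CPM and Cd79a at 1.48 ± 1.14 CPM (SD, n = 3).

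Vpreb1, a part of the surrogate light chain (chr16:16868403-16870843), stood at 2.39, 4.28 and 2.01 CPM in WT. It was 1.05, 0.670 and 1.07 CPM with vehicle, 1.84, 0.610 and 0.655 CPM with AG221, 0.659, 0.940 and 2.01 CPM with ruxolitinib, and 3.29, 1.07 and 1.25 CPM with combined treatment. The combined libraries were all above the vehicle libraries, B25 by less than 0.01 CPM, and only B24 and ruxolitinib library A17 reached the WT range. Igll1, the other chain of the surrogate light chain, ranged from 2.05 to 7.08 CPM in WT and from 0.479 to 0.978 CPM with vehicle, and Vpreb3 from 2.21 to 3.61 and from 0.383 to 0.829 CPM. The near copy Vpreb2 held 25 reads in all 15 libraries and was not tested. Top3b overlaps 9.01% of the Vpreb1 exons in antisense, and reads there could belong to either gene.

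**Figure D2:**
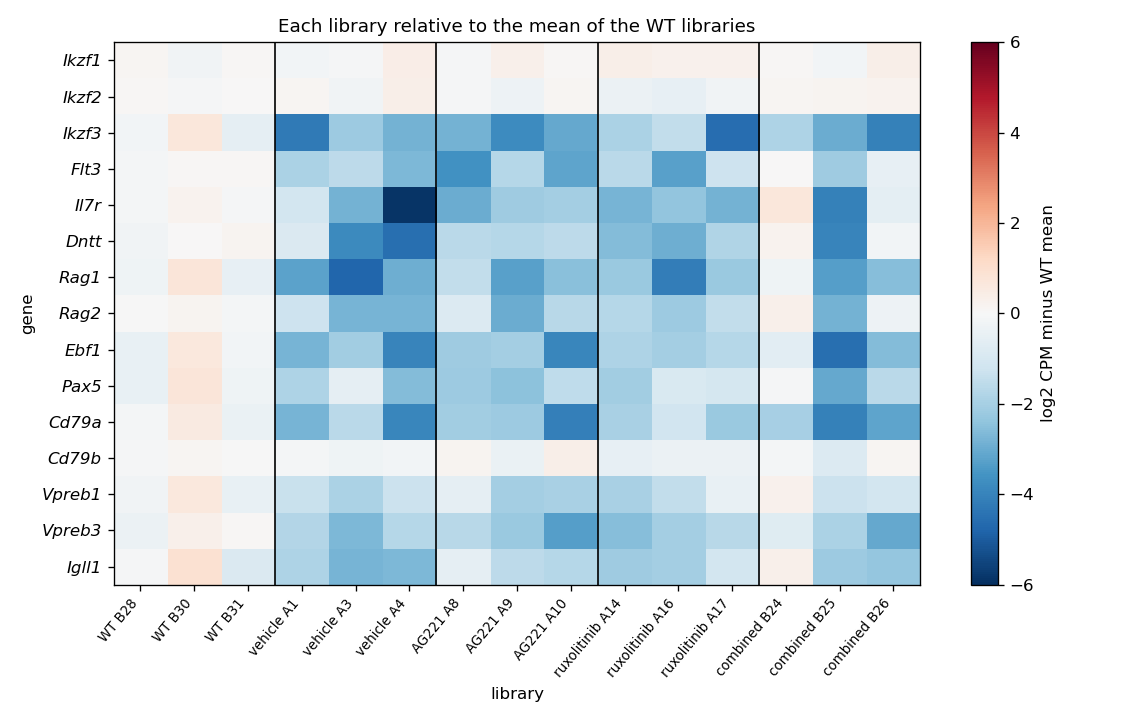
Log2 CPM (prior count 2) of 15 genes in each library minus the mean of the 3 WT libraries, with genes in rows, libraries in columns, black lines between groups, blue for lower and red for higher. Il7r, Dntt, Flt3 and Rag2 are near 0 in combined libraries B24 and B26 and blue in B25, Cd79a and Ikzf3 are blue in all 12 mutant libraries, and Ikzf1, Ikzf2 and Cd79b stay near 0 throughout.

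Counted over libraries, 7 or 8 of the 9 genes lay below the lowest WT library in each of the 9 vehicle, AG221 and ruxolitinib libraries. Rag1, which passed the filter through WT alone, is in each of these counts. In combined libraries, 3 genes were below the WT range in B24 (Cd79a, Cd79b and Ebf1), 8 in B25 and 6 in B26. Of all tested genes, 40.3% to 52.6% lay below the lowest WT library in the vehicle, AG221 and ruxolitinib libraries and 29.9% to 38.0% in the combined libraries, lowest in B24 and highest in B25.

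To ask what the mutant cells lacked, vehicle was compared with WT. The signaling chain Cd79a, the fate factor Ebf1 and the surrogate light chain gene Vpreb1 were lower with vehicle, whereas Il7r, Dntt, Pax5, Cd79b and Ikzf1 did not pass the test. In edgeR's quasi-likelihood fit with Benjamini-Hochberg adjustment over all tested genes, 4 of the 9 genes were called lower and none higher, where 17.9% of all tested genes were called lower. One of the 4 is Rag1, which entered the test through WT alone and had a log2 fold change of -4.24 (SE 1.06, adjusted p = 0.0118). Ebf1 fell by 2.96 on the log2 scale (SE 0.833, adjusted p = 0.0188), Cd79a by 2.58 (SE 0.678, adjusted p = 0.0142) and Vpreb1 by 1.64 (SE 0.568, adjusted p = 0.0407). Il7r had a log2 fold change of -2.34 (SE 0.986, adjusted p = 0.0807), Dntt of -2.20 (SE 0.911, adjusted p = 0.0761) and Pax5 of -1.69 (SE 0.835, adjusted p = 0.129). These 3 genes lay below WT in all 3 vehicle libraries but differed widely among them, with A1 highest for Il7r and Dntt and A3 highest for Pax5. Cd79b had a log2 fold change of -0.18 (95% interval -0.66 to 0.30) and Ikzf1 of 0.08 (95% interval -0.29 to 0.45). At an unadjusted p under 0.05 there were 6 genes, all lower (46.1% of all tested genes in either direction). The libraries of both groups did not overlap for 8 of the 9 genes, all lower with vehicle, against 31.3% of all tested genes. Both of these counts include Rag1, which adds no support to them. The median log2 fold change was -2.20 over the 9 genes and -0.09 over all genes tested. Without WT library B30, which was highest in 7 of the 9 genes, no member was called, 3 had an unadjusted p under 0.05 and all 9 log2 fold changes were negative, and the genes called in all fell from 5937 to 1901. Without vehicle library A4, 2 members were called, and without A1 the 3 called members were Rag1, Dntt (adjusted p = 0.0159) and Il7r (adjusted p = 0.0395). Since A1 was the vehicle library highest in Dntt and Il7r, their calls without it add no support.

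The 2 single-agent groups were compared with the same WT libraries, so these comparisons are not independent of the one above. With AG221, 5 of the 9 genes were called lower (28.5% of all tested genes were called lower), Cd79a by 2.64 on the log2 scale (SE 0.684, adjusted p = 0.00719), Ebf1 by 2.67 (SE 0.827, adjusted p = 0.0171), Pax5 by 2.49 (SE 0.899, adjusted p = 0.0338), Vpreb1 by 1.48 (SE 0.567, adjusted p = 0.0426) and Rag1, subject to the limit above, by 2.54 (SE 0.934, adjusted p = 0.0364). With ruxolitinib, the only call was that of Rag1 (16.2% of all tested genes were called lower), at a log2 fold change of -3.03 (SE 0.969, adjusted p = 0.0312), which comes from a gene that passed the filter through WT alone and gives no support for a difference. No other member was called, while Il7r at -2.72, Cd79a at -1.77 and Dntt at -2.37 had adjusted p-values of 0.0533, 0.0537 and 0.0616. The groups did not overlap for 7 genes lower with AG221 (36.0% of all tested genes) and 7 lower with ruxolitinib (32.8%), and both counts include Rag1, with the same limit. Ikzf1 was higher in every ruxolitinib library than in any WT library (25.4% of all tested genes), with a log2 fold change of 0.28 (SE 0.172, adjusted p = 0.223). The AG221 count was 1 without WT B30 or without A10, 2 without A9 and 3 without WT B28, and Cd79a was called in each of the 6 fits that left out a library. The ruxolitinib count was 0 without any of A14, A16, A17, B28 or B30, and it was 4 in DESeq2, with Cd79a, Dntt and Il7r besides Rag1.

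Combined treatment was compared with WT within the B libraries. Cd79a fell by 2.93 on the log2 scale (SE 0.696, adjusted p = 0.0397) and was the only member called, where 1.61% of all tested genes were called lower. Cd79a and Ebf1 were the 2 genes whose groups did not overlap, both lower (19.3% of all tested genes), with a log2 fold change of -1.96 (SE 0.799, adjusted p = 0.150) for Ebf1. Dntt and Il7r had log2 fold changes of -0.52 (95% interval -2.40 to 1.36) and -0.37 (95% interval -2.37 to 1.63), intervals that hold both 0 and a log2 change of -2. Without combined library B25 these values were 0.04 and 0.21, and no member was called, with 1 at an unadjusted p under 0.05 where all 3 libraries gave 2 (25.4% of all tested genes). Without B24, Cd79a and Ebf1 were called. Without B26, B28, B30 or B31 none was called, and the log2 fold change of Cd79a lay between -3.66 and -2.52 over the 6 fits that left out a library.

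**Figure D3:**
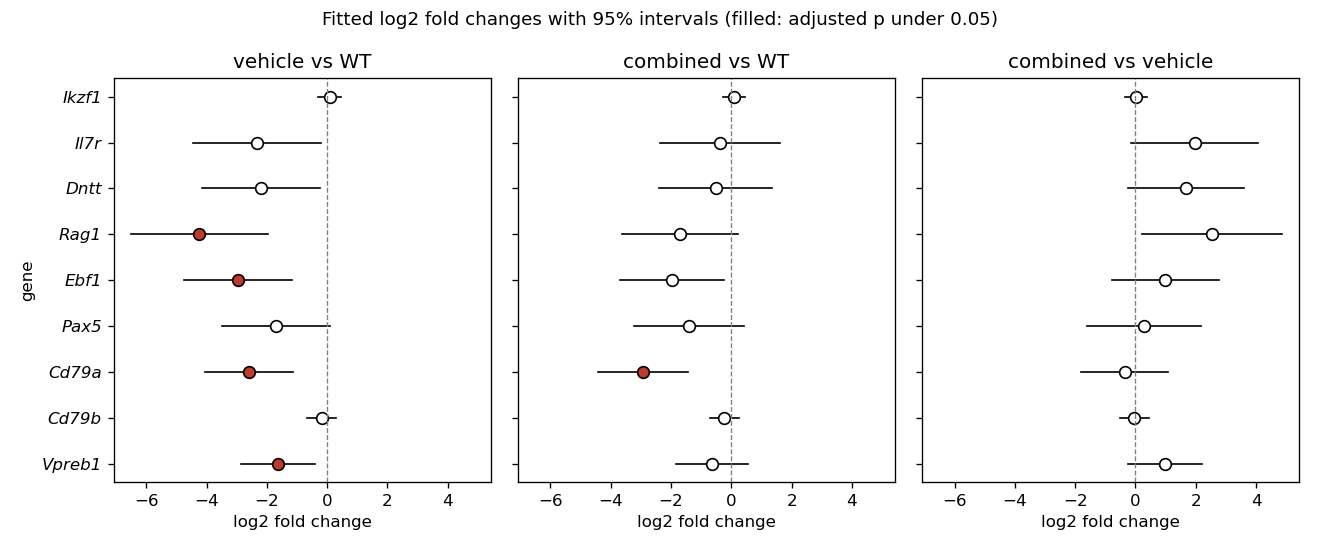
Fitted log2 fold change (horizontal axis) of the 9 genes (rows) in 3 comparisons, with 95% intervals as lines and filled points for an adjusted p under 0.05. The 4 filled points of vehicle against WT are Rag1, Ebf1, Cd79a and Vpreb1, Cd79a is the only filled point of combined treatment against WT, and all intervals of combined treatment against vehicle but that of Rag1 include 0.

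Whether inhibitors changed these genes in mutant cells was asked by comparing each treatment with vehicle. No member was called with AG221 (0.987% of all tested genes were called in either direction), with ruxolitinib (0.0168%) or with combined treatment (12.5%) by edgeR, and none was called by DESeq2. Unadjusted p-values under 0.05 numbered 0, 0 and 1 in edgeR (25.2%, 4.56% and 26.4% of all tested genes) and 0, 0 and 2 in DESeq2. With combined treatment the log2 fold changes were 2.55 for Rag1 (SE 1.08, adjusted p = 0.148), 1.97 for Il7r (SE 0.979, adjusted p = 0.221), 1.68 for Dntt (SE 0.896, adjusted p = 0.256), 0.996 for Vpreb1 (SE 0.571, adjusted p = 0.295) and 0.995 for Ebf1 (SE 0.827, adjusted p = 0.492). Cd79a had a log2 fold change of -0.35 (95% interval -1.80 to 1.09), Cd79b of -0.04, Ikzf1 of 0.01 and Pax5 of 0.29. Vpreb1 was the only gene whose libraries did not overlap, higher with combined treatment (19.5% of all tested genes). Vehicle library A1 and combined library B25 run against their groups for Dntt. Without A1 Dntt was called, with a log2 fold change of 3.62 (adjusted p = 0.0323). Since A1 was singled out by its own Dntt level, this call gives no support for a difference. Without A3 or A4 no member was called, with 0 and 1 at an unadjusted p under 0.05 (4785 of 19112 and 4405 of 19125 tested genes). Without B25 no member was called, 4 had an unadjusted p under 0.05 (4319 of 19112 tested genes) and all 9 log2 fold changes were positive. Without B24 no member was called, 0 had an unadjusted p under 0.05 and 4 log2 fold changes were negative.

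With AG221 the log2 fold changes against vehicle ran from -0.80 for Pax5 to 1.70 for Rag1, and no member's libraries separated from vehicle (20.0% of all tested genes). With ruxolitinib they ran from -0.39 for Il7r to 1.21 for Rag1, with Ebf1 higher (3.67% of all tested genes) and Cd79b lower (4.50%) in every ruxolitinib library than in any vehicle library, at log2 fold changes of 0.98 (SE 0.822) and -0.21 (SE 0.224). Intervals were wide for the sparse genes, as the 95% interval for Cd79a with AG221 was -1.49 to 1.37.

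The combination was also set against each single agent. No member was called against AG221 (33.2% of all tested genes were called) or against ruxolitinib (12.4%), and DESeq2 called none. Unadjusted p-values under 0.05 numbered 0 and 1 in edgeR (44.4% and 25.4% of all tested genes) and 1 and 1 in DESeq2. Il7r had log2 fold changes of 2.01 (SE 0.985, adjusted p = 0.131) and 2.35 (SE 1.002, adjusted p = 0.156) against AG221 and ruxolitinib, and Dntt of 1.11 (SE 0.882, adjusted p = 0.354) and 1.85 (SE 0.901, adjusted p = 0.220). Without B25, the combined library lowest in Il7r, Il7r was called against AG221, which gives no support for a difference. No member was called when any other library of the compared groups was left out. The departure of the combination from the sum of both single-agent changes was not called for any member, where 8.42% of all tested genes were called, and DESeq2 called none. No member had an unadjusted p under 0.05 in edgeR (32.0% of all tested genes) or DESeq2. It was 2.39 for Il7r (SE 1.39) and 1.28 for Dntt (SE 1.24) on the log2 scale.

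Genes around the 9 were read in lists of general knowledge that include them. Of all tested genes, 17.9% were called lower and 15.4% higher with vehicle than in WT. Of 28 lymphoid priming genes, 10 were lower, Rag1 among them with the limit above, and 1 was higher (median log2 fold change -0.96, against -0.09 over all genes). The lower ones included Blnk, an adaptor of the pre-B cell receptor, at -3.28 (adjusted p = 0.000719), Flt3 at -1.99 (adjusted p = 0.0252), Rag2 at -2.13 (adjusted p = 0.0332), and the E protein gene Tcf12 at -0.68 (adjusted p = 0.0150), and the higher one was Il2rg, the common cytokine receptor chain, at 0.70 (adjusted p = 0.0188). Of 18 early B regulators, 7 were lower and 1 higher, with Irf4 at -4.76, Pou2af1 at -4.34 and Ikzf3 at -3.13, of which Irf4 and Pou2af1 are also used by plasma cells, and Zeb2, a repressor not restricted to B cells, at 1.18. Of 24 tested pro-B and pre-B genes, 12 were lower, again with Rag1 among them, and 1 was higher. The lower ones included Fcrla at -3.60, Igll1 at -2.69 and Vpreb3 at -2.14, and the higher one was Btk at 0.53. Among recombination genes, Rag2 and, with the limit above, Rag1 were lower and Prkdc at 0.58, Hmgb1 at 0.50 and Hmgb2 at 0.51, which act in every cell, were higher, and 7 of the 12 were not called. In the Ikaros family, Ikzf3 was lower, Ikzf5 was higher at 0.52, and Ikzf1 and Ikzf2 were among the 3 not called. Without WT library B30, 1, 2 and 2 genes of the first 3 lists and none of the last 2 were called lower, where 1057 of 18054 tested genes were. Tcf12, Ikzf5, Btk, Prkdc, Hmgb1, Hmgb2 and Il2rg were then no longer called.

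With combined treatment against vehicle, 3 of 28 lymphoid priming genes were higher and none was lower (8.28% of all tested genes were called higher). They were Tcf12 at 0.78 (SE 0.181, adjusted p = 0.0134), Gfi1, a transcriptional repressor in stem and lymphoid progenitors, at 1.47 (SE 0.376, adjusted p = 0.0213), and Satb1, a chromatin organizer of lymphoid priming, at 1.77 (SE 0.525, adjusted p = 0.0418). Gfi1 is also among the neutrophil markers read below. Of the pro-B and pre-B list, Sox4, an SRY-box factor that B cell precursors need, was called, at 3.48 (SE 0.725, adjusted p = 0.00751), with means of 44.2 CPM in WT, 7.17 with vehicle, 3.73 with AG221, 9.86 with ruxolitinib and 80.1 with combined treatment. It was called in each of the 6 fits that left out a library. Tcf12 means were 95.04, 59.3, 54.6, 57.9 and 101.7 CPM in the same order. Of the early B regulators, Id3, an inhibitor of E proteins, was lower by 2.97 on the log2 scale (adjusted p = 0.0298, where 4.21% of all tested genes were called lower), but not without A1, A3, B25 or B26, and it was -1.63 without A3 (adjusted p = 0.167). Tcf12 lost its call without A1 or B25, Gfi1 without A1, A4, B24 or B25 and Satb1 without any library but B25. The median over the 28 priming genes was 0.80 against 0.04 over all genes. It was smaller in the other B cell lists, at 0.21 for early B regulators, 0.34 for pro-B and pre-B genes and -0.01 for mature B markers.

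Markers of antibody-secreting and mature B cells moved with the difference from WT, and their part in it was not tested. Immunoglobulin and T cell receptor segments took 0.680% to 2.39% of counts in WT libraries, most in B30, and 0.0161% to 0.107% in the 12 mutant libraries. Of 11 plasma cell markers, 9 were lower and 1 was higher with vehicle than in WT (17.9% and 15.4% of all tested genes). Among them were Tnfrsf17 at -5.40, Irf4 at -4.76 and Sdc1 at -4.11 on the log2 scale, and Fkbp11 at 0.85. Without B30, 6 were lower, where 1057 of 18054 tested genes were. The summed level of the 11 markers was 734 to 1581 CPM in WT, 129 to 253 with vehicle, 91.8 to 205 with AG221, 137 to 333 with ruxolitinib and 339 to 424 with combined treatment. Jchain, which joins secreted immunoglobulin, stood at 422 to 935 CPM in WT and at 0.835 to 66.6 CPM in the others. Of 15 mature B markers, 5 were lower with vehicle (17.9% of all tested genes), among them Ighm at -5.52, Blk at -2.54 and Bank1 at -1.83. All 15 were above the floor in each WT library. Their sum was 3272 to 10128 CPM in WT, of which Ighm made 2938 to 9775, and 377 to 900.5 CPM in the others. The other 14 summed to 333 to 353 CPM in WT, 232 to 319 CPM with vehicle, 249 to 278 CPM with AG221, 227 to 313 CPM with ruxolitinib and 256 to 342 CPM with combined treatment. Leaving out the 698 immunoglobulin and T cell receptor segments changed none of the 4, 5, 1 and 1 member calls of the comparisons with WT. This step rescales the libraries and leaves the reads of every member in place, so it checks the scaling only.

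**Figure D4:**
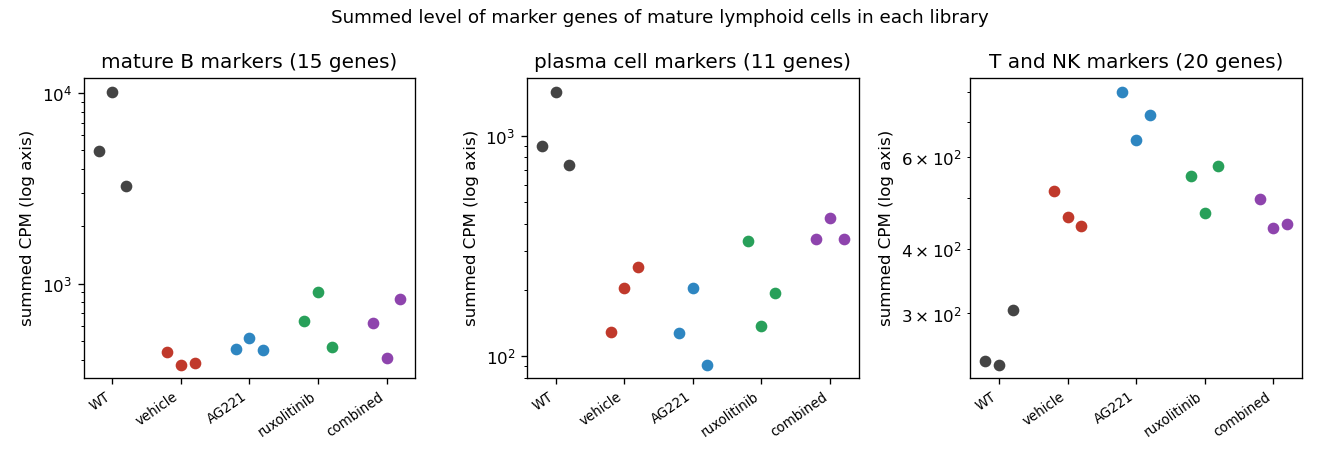
Summed CPM (vertical log axes) of 15 mature B, 11 plasma cell and 20 T and NK marker genes in each library, shown as dots by group. WT lies above all mutant libraries for mature B and plasma cell markers, with library B30 highest, and below all of them for the T and NK sum, most of which is Nkg7.

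Of 18 tested T and NK markers, 16 had negative log2 fold changes with vehicle against WT (median -1.23, against -0.09 over all genes). Only 2 were called lower (17.9% of all tested genes), Cd247 by 1.74 and Cd5 by 1.54 on the log2 scale. The 2 called higher (15.4% of all tested genes) were Thy1, by 1.602, and Nkg7, a granule protein gene that myeloid progenitors also transcribe, by 1.29. Nkg7 alone made 405 to 454 CPM of the list's sum of 442 to 516 CPM with vehicle, and 150.2 to 216 CPM of 239 to 304 CPM in WT, so the sum was higher with vehicle although most of its genes were lower. Against WT, 14 of 18 had negative log2 fold changes with AG221, with ruxolitinib and with combined treatment. Neutrophil markers summed to 3492 to 3848 CPM in WT, 7873 to 12899 CPM with vehicle, 17478 to 20561 CPM with AG221, 12235 to 19432 CPM with ruxolitinib and 4330 to 7768 CPM with combined treatment, and their part in the levels of the lymphoid genes was not tested.

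Likeness among the 9 genes was read from log2 CPM over the 15 libraries, which share groups and sequencing, as a description. Il7r and Dntt were alike (r = 0.927, and 0.889 after each group's mean was removed), as were Cd79a and Ebf1 (r = 0.934 and 0.866) and Vpreb1 and Rag1 (r = 0.851 and 0.766). Cd79a and Rag1 were less alike (r = 0.553, and 0.0745 within groups). Ikzf1 had r from -0.338 to -0.105 with the other 8. Over all tested genes, those nearest to Il7r were Lck (r = 0.960), Arpp21 (0.945) and Icos (0.943), and those nearest to Dntt were Gpr171 (0.965), Arpp21 (0.954) and Rbm47 (0.936). Alpk2 (0.959), Nrxn2 (0.934) and Ebf1 were nearest to Cd79a, and Gm9256 (0.955), Tnni2 (0.955) and Cd79a to Ebf1. Scn4b, Gm11342 and Cmah (0.947 to 0.926) were nearest to Rag1, Txnip, Blk and BC021767 (0.911 to 0.897) to Pax5, and Gm15408, Gm26625 and Igll1 (0.872 to 0.866) to Vpreb1. The level genes had weaker neighbours, with Spata46, Fam234a and 4931406C07Rik (0.849 to 0.828) for Cd79b and Rps12-ps26, Apon and Usp32 (0.800 to 0.762) for Ikzf1. Of the 3 genes nearest to each member by Pearson's r, 0 to 2 were also among the 3 nearest by Spearman's rho.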

How the data were processed

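Total RNA of sorted CD45.2+ LSK cells was amplified with SMARTer and sequenced paired-end by the authors. The authors aligned reads to mm10 (GRCm38) with STAR 2.5.1a and deposited raw counts of reads per Ensembl gene. The Ensembl release and strand setting are not given in the sources used here. A second deposited table, counts normalized with DESeq2 1.6.3 per the labels, was not used.

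Symbols came from GENCODE M21, which named 44585 of 45232 IDs. Genes that passed filterByExpr (17834) entered a single edgeR 4.0.16 quasi-likelihood fit (R 4.3.3) of 15 libraries and 5 groups with TMM scaling and no covariates. The 9 comparisons of groups and the interaction were contrasts of this fit, called at a Benjamini-Hochberg adjusted p under 0.05. CPM used TMM-scaled library sizes. Floors cover counting error only.

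The 9 genes and all lists were chosen with earlier results of these data known. Besides the 9 and their partners, genes are named as the up to 3 with the smallest adjusted p in each direction of each lymphoid list in vehicle against WT and combined treatment against vehicle, and as the 3 with the highest r to each member. The fit was tested on simulated counts with known changes in the vehicle group. Against WT it called 23.1%, 53.7% and 87.5% of log2 changes of 1, 2 and 3 with the right sign, so many smaller changes are missed. Alternatives were DESeq2 1.42.0, RLE and upper quartile scaling, other filters, GC content offsets, only the groups compared, no immunoglobulin and T cell receptor segments, plain library sizes and leaving out each library. No protein sequences were used here. The values of 1 partner gene are not reported here.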

Additional observations from a re-analysis of the deposited data

How the results depend on the processing

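No paired analysis was possible because the groups share no replicate number. The count of members called kept within 1.5 times its reported value under RLE scaling and without immunoglobulin and T cell receptor segments in all 9 comparisons and the interaction. Requiring 10 counts in every library left 5 members tested and 2 called against WT with vehicle (4 reported) and 2 with AG221 (5 reported), and GC content offsets left 3 with AG221. Against WT, ruxolitinib gave 3 calls under upper quartile scaling, 5 without a filter, 5 with only the groups compared and 4 in DESeq2, where 1 is reported. Leaving out 1 library gave 0 to 4 calls for vehicle, 1 to 5 for AG221, 0 to 1 for ruxolitinib and 0 to 2 for combined treatment against WT, and 0 to 1 for combined treatment against vehicle and against AG221. With vehicle against WT the count was 0 without WT library B30, and the cause was not tested.

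Folds of uncalled genes changed sign. Ikzf1 became -0.0186 (upper quartile) and -0.0362 (at least 10 counts) with vehicle against WT, -0.105 and -0.0303 with combined treatment against WT, and -0.0860 (upper quartile), -0.00875 (no filter) and -0.101 (GC offsets) with combined treatment against vehicle. Leaving out 1 library gave Ikzf1 ranges of -0.0948 to 0.208, -0.0352 to 0.220 and -0.133 to 0.203 in the same order. Ranges that crossed 0 against WT with combined treatment were -0.417 to 0.0185 for Cd79b, -1.06 to 0.0389 for Dntt and -1.47 to 0.21 for Il7r, and against vehicle -1.10 to 0.44 for Cd79a, -0.25 to 0.18 for Cd79b, -0.63 to 1.57 for Ebf1 and -1.16 to 1.36 for Pax5. Upper quartile scaling moved the median log2 fold change of all genes from 0.04 to -0.16 for combined treatment against WT, and GC offsets from -0.09 to 0.09 for vehicle against WT. Depth limits Pax5 and Rag1 most, with fewer than 20 reads in most mutant libraries.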
